A study of Mus musculus with 2 samples.

Results

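The Hox genes of sorted mouse lung epithelium are described here: every gene whose symbol in the tables is Hox, a cluster letter from a to d and a paralogue number, with values summed over the transcript entries of a symbol. The rule found 39 members among 22072 genes, 11 in the Hoxa cluster, 10 in Hoxb, 9 in Hoxc and 9 in Hoxd. RNA was sequenced from lung cells that lacked lineage markers, carried CD326 (Epcam) and had intermediate CD24, a sort meant to enrich secretory airway cells without motile cilia. The library labelled Mst1/2 D/D came from adult mice that carried Scgb1a1-rtTA, tetOCre and floxed alleles of Mst1 and Mst2. The control library came from adult mice with tetOCre and the same floxed alleles but without Scgb1a1-rtTA. All mice ate doxycycline food (625 mg/kg) for 16 days. In mice with the transgene, the reverse tetracycline transactivator made under the club cell promoter of Scgb1a1 lets doxycycline switch on Cre, so the transactivator, active Cre and the intended deletion cannot be told apart. Each library holds the pooled RNA of 4 mice of 1 genotype. There are thus 2 libraries in all, no replicate error and no test between the genotypes.

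Hox genes encode homeodomain transcription factors that give cells their position along the body axis. In mammals they lie in clusters on separate chromosomes, and genes at the same place in different clusters, the paralogues, share a number. Low numbers lie at the 3′ end of a cluster and act early and towards the head, whereas high numbers act later and towards the tail, limbs and genital tract. Hox proteins bind DNA together with TALE homeodomain cofactors of the Pbx, Meis and Pknox families. Polycomb proteins keep unused Hox genes silent, and trithorax proteins of the MLL type keep used ones active. In the mouse lung, Hoxa and Hoxb genes with low and middle numbers are active during development, largely in mesenchyme. Hoxa5 and Hoxb5 have been linked to airway formation.

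The tables give FPKM, in which fragments are divided by transcript length and library size, so levels of different genes can be set side by side. About 8340000 reads lay on the listed transcripts in the Mst1/2 D/D library and 8770000 in the control library, if a read covers 47.1 bases, an estimate from low values in the tables. The targeted genes were present in both libraries. Stk4, which encodes Mst1, had an FPKM of 4.71 in the Mst1/2 D/D library and 5.38 in the control library. Stk3, which encodes Mst2, had 7.09 in the Mst1/2 D/D library and 7.28 in the control library. The labels do not say which exons Cre removes, so these values over whole transcripts check nothing about the deletion. Epithelial markers were plentiful. The lowest of the 11 on the list, Foxa2, had an FPKM of 9.27 in the Mst1/2 D/D library and 7.81 in the control library, and Nkx2-1, the regulator of lung identity, had 88.1 in the Mst1/2 D/D library and 74.2 in the control library.

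Hox transcripts were close to the limit of detection in both pools. In each library 0 of 39 members reached an FPKM of 1, whereas 43.3% of all genes did so in the Mst1/2 D/D library and 43.2% in the control library. Summed over the family, FPKM came to 1.31 in the Mst1/2 D/D library, from about 74.6 reads, and to 1.62 in the control library, from about 103 reads. A value above 0 was listed for 16 members in the Mst1/2 D/D library and for 14 in the control library. The overlap was 12 members, 75% of the first set and 85.7% of the second, and 21 members were listed at 0 in both libraries. Among all genes, 16505 (74.8%) in the Mst1/2 D/D library and 16643 (75.4%) in the control library lay above 0. The overlap of these was 15881 genes, a larger part of each set than among the Hox members. The set of all genes includes many at far higher levels, and the overlap among equally low genes was not computed. All Hox estimates carried the status OK, unlike that of Scgb1a1, the club cell secretory protein gene, which has the status HIDATA, given by Cufflinks to loci with too many fragments, and is listed at 0 in both libraries. In bulk RNA, a few cells with much of a transcript and many cells with little of it cannot be told apart.

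An FPKM of 1 was a strict bar in these tables, because the FPKM of all genes summed to only 150932 in the Mst1/2 D/D library and 145668 in the control library. Rescaled to TPM, which brings every library to the same total, 2 members reached 1 in the Mst1/2 D/D library, Hoxc8 at 1.72 TPM and Hoxb3 at 1.41 TPM. In the control library 4 did, Hoxc8 at 2.95 TPM, Hoxb3 at 1.60 TPM, Hoxa5 at 1.58 TPM and Hoxb5 at 1.09 TPM. By the same measure 60.6% of all genes reached 1 TPM in the Mst1/2 D/D library and 61.5% in the control library. Scgb1a1, listed at 0 for its status, adds nothing to the FPKM sums, so TPM values may be too high by an unknown amount.

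**Figure D1:**
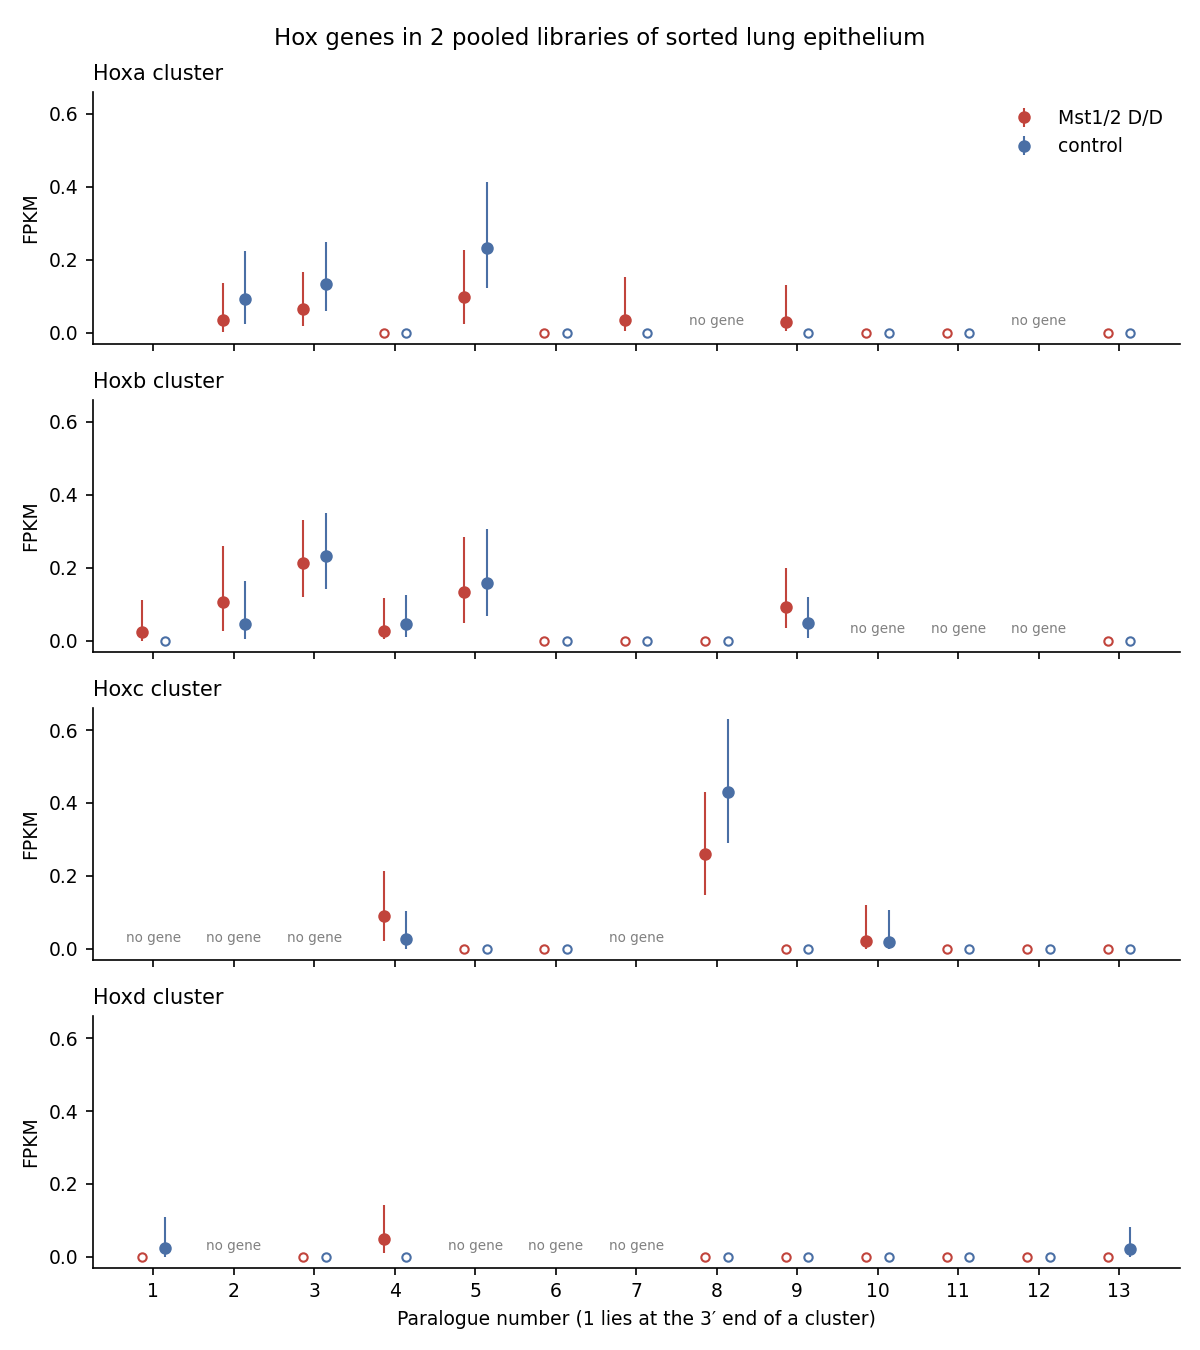
FPKM of 38 of the 39 Hox genes (vertical axis) by paralogue number (horizontal axis), 1 panel per cluster, in the Mst1/2 D/D library (red, left of each number) and the control library (blue, right). Bars are 95% Poisson intervals from approximate reads and cover counting error only; open circles mark genes listed at 0. Hoxc8 stands highest in both libraries, at 0.259 in Mst1/2 D/D and 0.430 in control, and paralogues 10 to 13 lie at or near 0.

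The values were unevenly spread along the clusters. Of 15 members with paralogue numbers 1 to 5, 12 had a value above 0 in at least 1 library. They held 66.8% of the summed Hox FPKM in the Mst1/2 D/D library and 68.0% in the control library. The 3 others, Hoxa4, Hoxc5 and Hoxd3, were at 0 in both. Of 12 members numbered 6 to 9, 4 had a value, with 31.5% of the sum in the Mst1/2 D/D library and 29.4% in the control library, most of it from Hoxc8. Of 12 members numbered 10 to 13, which act in limbs and the hind part of the body, 2 had a value, with 1.73% of the sum in the Mst1/2 D/D library and 2.58% in the control library. Each of these, Hoxc10 and Hoxd13, rested on fewer than 2 reads per library. All members of paralogue groups 6, 11 and 12 were at 0 in both libraries. Over all genes, 17267 of 22072 had a value above 0 in at least 1 library.

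The low-numbered Hoxa genes named here with a value in both libraries were each lower in the Mst1/2 D/D library, on few reads. Hoxa5, a regulator of lung and airway formation in the mouse, headed the cluster. Its FPKM was 0.0978 in the Mst1/2 D/D library and 0.231 in the control library, from about 4.44 reads in Mst1/2 D/D and 11.7 in control. The ratio was 0.424, with a 95% interval of 0.0876 to 1.23 that was computed from these reads and covers counting error only, as do all intervals given with ratios. Hoxa3, which acts in the pharyngeal arches and thymus, had 0.0657 in the Mst1/2 D/D library and 0.134 in the control library, a ratio of 0.492 (0.112 to 1.78). Hoxa2, a patterning gene of the hindbrain, had 0.0351 in the Mst1/2 D/D library and 0.0932 in the control library, a ratio of 0.376 (0.00567 to 2.82). Each of these intervals includes 1. Hoxa7 and Hoxa9, further along the cluster, were listed in the Mst1/2 D/D library alone, Hoxa7 at 0.0333 and Hoxa9 at 0.0281, each from fewer than 2 reads. Hoxa4, Hoxa6, Hoxa10, Hoxa11 and Hoxa13 were at 0 in both.

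The Hoxa sum was 0.295 in the Mst1/2 D/D library and 0.567 in the control library, a ratio of 0.520. Counted as reads scaled for depth, from about 15.1 in the Mst1/2 D/D library and 32.5 in the control library, the ratio was 0.521 (0.264 to 0.996), the one cluster whose interval lay below 1. With a read taken as 100 bases the interval widened to 0.180 to 1.36 and included 1. The locus of Hoxa3 (chr6:52119061-52163066, mm9) spans those of Hoxa4, Hoxa5 (chr6:52151753-52154586) and Hoxa6, and the noncoding entry 2700086A05Rik overlaps Hoxa3, Hoxa5 and Hoxa6. How reads there were divided among these entries was not tested.

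To show what kind of start region these genes have, the 250 bases before the start are given for Hoxa5, the highest member with an entry in the RefSeq promoter table, and for Hoxa13, at the other end of the same cluster and at 0 in both libraries. The table is on GRCm38.p6, not the mm9 build of the expression tables, and was matched by symbol. Both genes lie on the minus strand, at chr6:52204588-52204837 for Hoxa5 and chr6:52260881-52261130 for Hoxa13. Capitals mark CpG dinucleotides.
Hoxa5: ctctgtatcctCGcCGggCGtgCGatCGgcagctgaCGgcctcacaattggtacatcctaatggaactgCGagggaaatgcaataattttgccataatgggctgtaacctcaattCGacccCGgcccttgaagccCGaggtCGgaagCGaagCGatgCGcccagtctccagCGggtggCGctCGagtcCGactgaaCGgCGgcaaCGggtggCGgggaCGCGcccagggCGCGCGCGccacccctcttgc
Hoxa13: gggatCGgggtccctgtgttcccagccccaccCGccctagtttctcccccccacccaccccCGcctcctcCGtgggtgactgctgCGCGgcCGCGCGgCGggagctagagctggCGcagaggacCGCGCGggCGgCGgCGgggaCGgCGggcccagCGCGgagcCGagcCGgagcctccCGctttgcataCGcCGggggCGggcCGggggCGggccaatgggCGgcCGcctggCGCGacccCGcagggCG
The Hoxa5 stretch holds 28 CpGs at 63.6% G and C, and the Hoxa13 stretch 35 CpGs at 80.0%. Observed over expected CpG was 1.11 for Hoxa5 and 0.875 for Hoxa13. The gene with reads and the gene without thus both start in CpG-rich sequence.

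The table matched 22 of the 39 members. Their windows had a median of 12 CpGs and of 56.8% G and C, against 6 CpGs and 52.4% over all 32851 promoters of the table, and a median observed over expected CpG of 0.603 against 0.374. In the 11 matched members with a value above 0 in a library the median observed over expected CpG was 0.466, and in the 11 matched members at 0 in both it was 0.755. Median CpG counts were 8 in the first group and 12 in the second. Median G and C went the other way, at 59.2% in the first group and 52% in the second. The spread within the family was wide, from 2 to 35 CpGs. The letters TGATNNAT, a core of sites bound by Hox and Pbx proteins together, were found on either strand of 3 of the 22 windows (13.6%) and of 7.68% of all promoters.

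The Hoxb genes differed in both directions between the libraries. Hoxb3, a gene of the hindbrain and neck region, had an FPKM of 0.214 in the Mst1/2 D/D library and 0.233 in the control library, from about 17.1 reads in Mst1/2 D/D and 20.9 in control, a ratio of 0.915 (0.448 to 1.80). It was second to Hoxc8 in both libraries. In the control library its level was not separable from that of Hoxa5 beyond counting error. Nearly all of it came from the shorter of its 2 transcript entries. Hoxb5, linked to branching of the mouse lung, had 0.133 in the Mst1/2 D/D library and 0.159 in the control library, a ratio of 0.837 (0.240 to 2.76). Hoxb2 had 0.106 in the Mst1/2 D/D library and 0.0458 in the control library, a ratio of 2.32 (0.320 to 24.7). Hoxb9, a gene of the thoracic region, had 0.0917 in the Mst1/2 D/D library and 0.0475 in the control library, a ratio of 1.93 (0.477 to 13.8). Hoxb4 had 0.0261 in the Mst1/2 D/D library and 0.0455 in the control library. These last 3 genes rested on at most 5.99 reads each, and the intervals of Hoxb2 and Hoxb9 reach from well below 1 to above 10. Hoxb1 was listed in the Mst1/2 D/D library alone, at 0.0238 from fewer than 2 reads. Hoxb6, Hoxb7, Hoxb8 and Hoxb13 were at 0 in both. The cluster sum was 0.594 in the Mst1/2 D/D library and 0.531 in the control library, and the depth-scaled read ratio was 1.07 (0.652 to 1.72).

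Hoxc8, a gene of the thoracic part of the axis, had the highest FPKM of the family in both libraries, while its neighbours Hoxc6 and Hoxc9 were at 0 in both. The 95% Poisson intervals of Hoxc8 and Hoxb3 overlapped in both libraries. In Mst1/2 D/D they were 0.146 to 0.431 for Hoxc8 and 0.121 to 0.332 for Hoxb3. In control they were 0.290 to 0.631 for Hoxc8 and 0.142 to 0.350 for Hoxb3. Overlap of separate intervals does not decide whether levels differ, and the difference between these genes was not tested. The FPKM of Hoxc8 (chr15:102820970-102824685, mm9) was 0.259 in the Mst1/2 D/D library and 0.430 in the control library. These values came from about 14.9 reads in Mst1/2 D/D and 27.6 in control. The ratio was 0.602, and its interval of 0.297 to 1.16 includes 1. These levels placed it at the 43.6 percentile of all genes in the Mst1/2 D/D library and at the 47.7 percentile in the control library. The locus overlaps no other entry of the tables. Hoxc4 had 0.0905 in the Mst1/2 D/D library and 0.0267 in the control library, from about 4.35 reads in Mst1/2 D/D and 1.43 in control. Hoxc10 had 0.0227 in the Mst1/2 D/D library and 0.0200 in the control library, about 1 read in each. Hoxc5, Hoxc11, Hoxc12 and Hoxc13 were at 0 in both. The Hoxc sum was 0.372 in the Mst1/2 D/D library and 0.477 in the control library, and the depth-scaled read ratio was 0.754 (0.401 to 1.36). Without Hoxc8 the ratio of the Hoxc FPKM sums was 2.43 instead of 0.781, so the direction of the sum depended on this gene. The ratio without Hoxc8 rested on the few reads of Hoxc4 and Hoxc10, and no interval was computed for it. The interval of the whole cluster included 1.

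The Hoxd cluster had the fewest reads. Hoxd4 was listed in the Mst1/2 D/D library alone, at 0.0481 from about 2.98 reads, and its locus overlaps those of Hoxd3 and Mir10b. Hoxd1 and Hoxd13, a gene of digits, were listed in the control library alone, Hoxd1 at 0.0257 and Hoxd13 at 0.0219, each from fewer than 2 reads. Hoxd3, Hoxd8, Hoxd9, Hoxd10, Hoxd11 and Hoxd12 were at 0 in both. The cluster sum was 0.0481 in the Mst1/2 D/D library and 0.0477 in the control library, from different genes. For the 21 family members at 0 in both libraries, 3 reads would have given an FPKM between 0.0427 and 0.177 in the Mst1/2 D/D library and between 0.0382 and 0.159 in the control library, depending on transcript length. A listed 0 therefore allows a level up to about these values, although some members were listed at lower levels on 1 or 2 reads. These limits cover counting error only.

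Of the 12 members above 0 in both libraries, 8 were lower and 4 higher in the Mst1/2 D/D library, and the median FPKM ratio was 0.720. Of the 6 members listed in 1 library alone, 4 were listed in Mst1/2 D/D and 2 in control, so that over all 18 members with a value 10 were lower and 8 higher in the Mst1/2 D/D library. Over all 15881 genes above 0 in both, 41.5% were lower and the median ratio was 1.05. The interval of the ratio included 1 for each of the 12 members, so that no single difference exceeded counting error. All reads of the family together gave a depth-scaled ratio of 0.810 (0.596 to 1.11), and without Hoxc8 0.885 (0.626 to 1.27). On the log2(FPKM + 1) scale, 0 members were at least 1.5-fold higher and 0 at least 1.5-fold lower in the Mst1/2 D/D library, beside a background of 1.45% of all genes higher and 1.33% lower. No member could have passed, since a gene at 0.430 in one library and 0 in the other differs only 1.43-fold on this scale. The log2 differences of the members ran from -0.18 for Hoxc8 to 0.09 for Hoxc4. Since 21 of 39 members were at 0 in both libraries, their median is 0 whatever the others did. Over the 18 members above 0 in a library the median was -0.03, beside 0.02 over the 17267 genes above 0 in a library.

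A pseudocount of 0.1 in place of 1 lets low genes differ more. Hoxc4 was then at least 1.5-fold higher in the Mst1/2 D/D library, and 2 members, Hoxa5 among them, were at least 1.5-fold lower. These are 2.56% and 5.13% of the members, against a background of 6.73% of all genes higher and 7.19% lower. With TPM and a pseudocount of 1, Hoxa5 alone was lower and 0 members were higher, against 6.43% of all genes lower and 4.84% higher. The shares of members that passed were not above those of all genes.

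**Figure D2:**
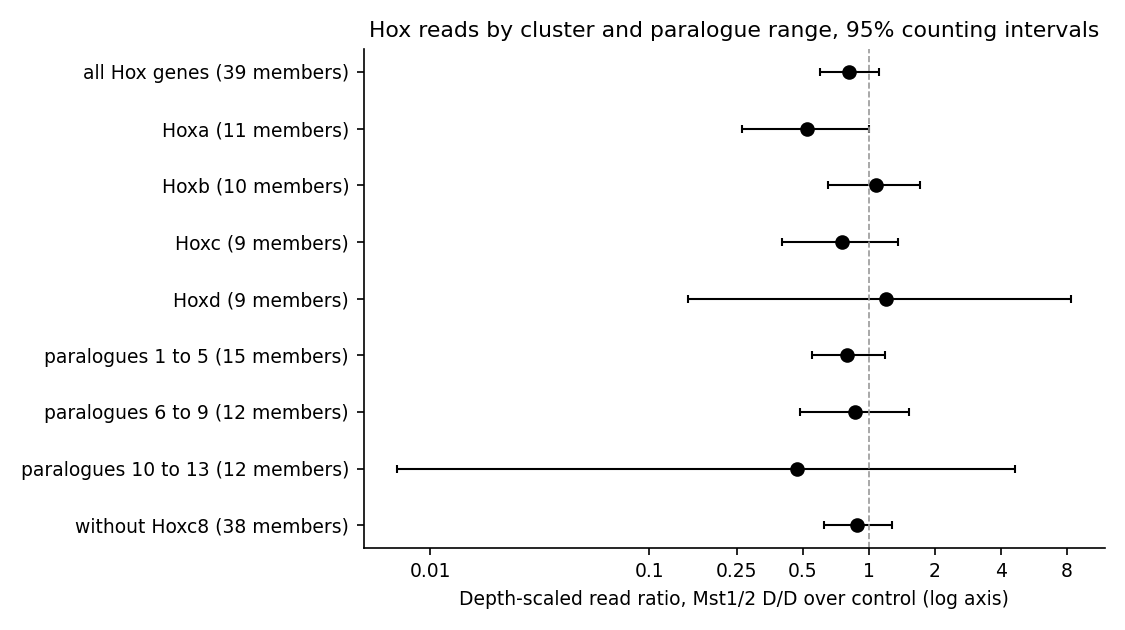
Depth-scaled read ratios, Mst1/2 D/D over control (horizontal log axis), for all Hox genes, for each cluster, for 3 ranges of paralogue number and for the family without Hoxc8 (vertical axis). Points are ratios of approximate reads and bars exact 95% intervals that cover counting error only; the Hoxa interval, 0.264 to 0.996, lies just below 1 and the others include 1.

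Other entries within the clusters were as low. The noncoding entries Hoxa11as, 2700086A05Rik and 1700109F18Rik were at 0 in both libraries, and Gm53, in the Hoxb cluster, was listed at 0.0877 in the Mst1/2 D/D library and at 0 in the control library. Evx1, a homeobox gene beyond Hoxa13, had 0.0201 in the Mst1/2 D/D library and 0.0174 in the control library, and Evx2, beyond Hoxd13, was at 0 in both. The 6 microRNA genes listed within the clusters, Mir10a, Mir10b, Mir196a-1, Mir196a-2, Mir196b and Mir615, were at 0 in both libraries. These entries are hairpin genes of 68 to 110 bases, and a library made by tagmentation of cDNA is not designed to capture mature microRNAs. The mature forms of the miR-10 and miR-196 families, known to target Hox transcripts, are shown because each family shares 1 seed (bases 2 to 8, in capitals) across clusters. The sequences are from RefSeq (GRCm38.p6).
mmu-miR-10a-5p: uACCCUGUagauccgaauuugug
mmu-miR-10b-5p: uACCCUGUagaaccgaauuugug
mmu-miR-196a-5p: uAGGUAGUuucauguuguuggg
mmu-miR-196b-5p: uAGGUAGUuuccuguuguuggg
Mir10a lies in the Hoxb cluster and Mir10b in Hoxd, whereas Mir196a-1 lies in Hoxb and Mir196b in Hoxa.

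Cofactors of Hox proteins were far better represented than the Hox genes. Of 9 TALE genes, 7 lay above the highest Hox gene in the Mst1/2 D/D library, and 7 did so in the control library. Pbx2 had an FPKM of 7.17 in the Mst1/2 D/D library and 6.31 in the control library, and Pbx3 5.79 in Mst1/2 D/D and 4.63 in control. Pknox1 had 1.20 in the Mst1/2 D/D library and 1.92 in the control library, a ratio of 0.627 (0.521 to 0.814), and Pknox2 0.219 in Mst1/2 D/D and 0.576 in control, a ratio of 0.381 (0.206 to 0.645). Both intervals lie below 1, but neither difference reached 1.5-fold once 1 was added to the FPKM. Meis3 had 2.61 in the Mst1/2 D/D library and 2.15 in the control library, and Meis1 and Meis2 were under 1 in both. Among the 9 cofactors 0 passed 1.5-fold in either direction, and their median log2 difference was -0.03.

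Polycomb and trithorax genes were present throughout. Of 22 Polycomb genes, 19 reached an FPKM of 1 in one of the libraries, and 0 passed 1.5-fold, with a median log2 difference of 0.14. Ezh2, a methyltransferase that places the repressive Polycomb mark on histones, had 2.07 in the Mst1/2 D/D library and 1.35 in the control library, a ratio of 1.54 (1.17 to 2.01). Suz12, a subunit of the same complex, had 6.27 in the Mst1/2 D/D library and 5.39 in the control library. Bmi1, of the other main Polycomb complex, had 4.04 in the Mst1/2 D/D library and 4.10 in the control library. All 12 trithorax and MLL complex genes reached an FPKM of 1 in one of the libraries, and 0 passed 1.5-fold, with a median log2 difference of 0.08. Mll1, a methyltransferase that maintains Hox expression, had 6.37 in the Mst1/2 D/D library and 6.10 in the control library. Rbbp5, a core subunit of such complexes, had 5.07 in the Mst1/2 D/D library and 3.25 in the control library, a ratio of 1.56 (1.35 to 1.80). The intervals of Ezh2 and Rbbp5 lie above 1.

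Retinoic acid switches on 3′ Hox genes in embryos, and Cdx factors activate central ones. Among 19 genes of this list, 1 was at least 1.5-fold lower and 0 were higher in the Mst1/2 D/D library. The lower one was Aldh1a2, an enzyme that makes retinoic acid, at 0.385 in the Mst1/2 D/D library and 1.31 in the control library, a ratio of 0.293 (0.172 to 0.479). Aldh1a1, a related enzyme, was abundant, with 463 in the Mst1/2 D/D library and 594 in the control library. The receptor gene Rarb had 6.63 in the Mst1/2 D/D library and 5.39 in the control library, and Rarg 5.42 in Mst1/2 D/D and 3.84 in control. Cdx1 and Cdx2 were at 0 in both. Other homeobox genes of lung epithelium lay far above the Hox family. Each of the 9 on that list had an FPKM above 1 in both libraries, and Nkx2-1, given above, was the highest. Hopx, a marker of alveolar type 1 cells, was the one of the 9 that passed 1.5-fold, at 45.4 in the Mst1/2 D/D library and 13.6 in the control library.

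**Figure D3:**
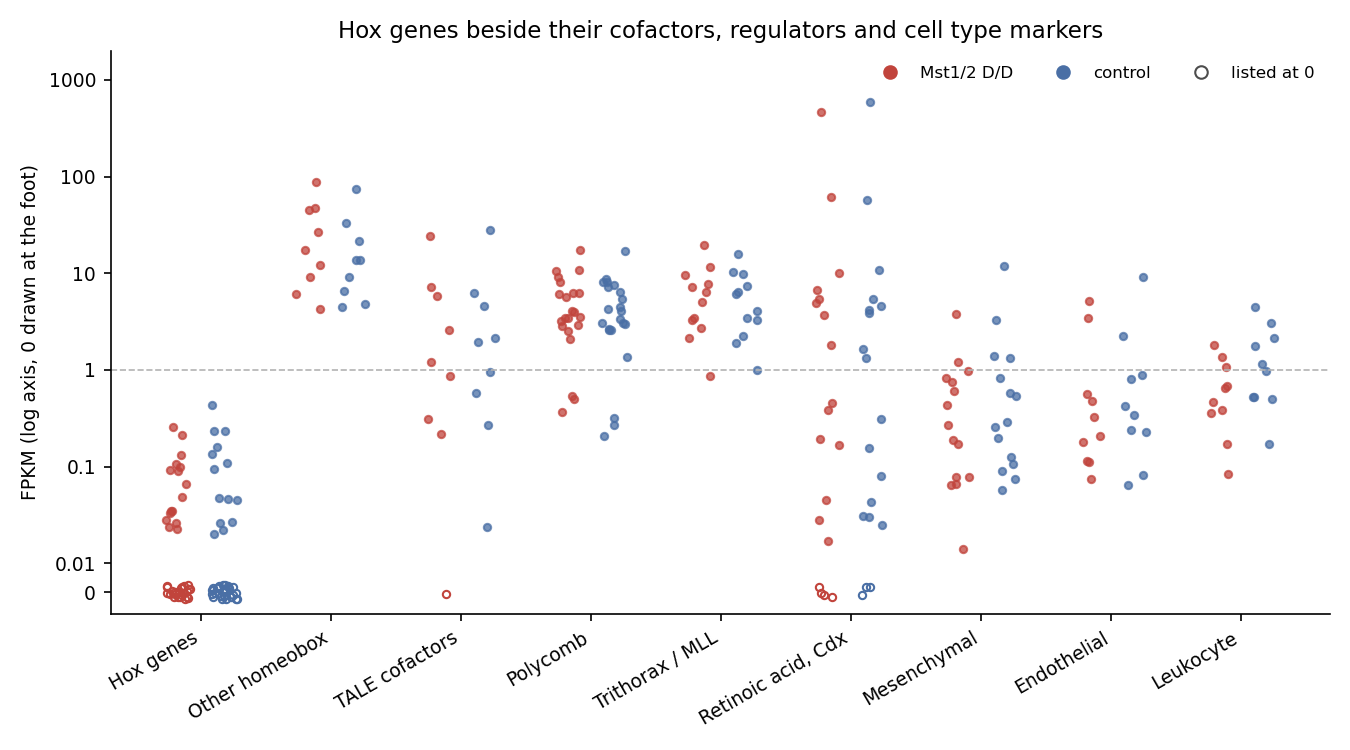
FPKM (vertical log axis, with 0 drawn at the foot) of the Hox genes and of 8 other gene lists (horizontal axis), in the Mst1/2 D/D library (red, left) and the control library (blue, right). Each point is a gene, open circles mark a listed 0 and the dashed line an FPKM of 1; all 39 Hox genes lie under the line, as do most mesenchymal and endothelial markers.

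Markers of other lung cells lay partly in the range of the Hox genes, and they differed in both directions between the libraries. Of 15 mesenchymal markers, 2 were at least 1.5-fold lower and 0 higher on the log2(FPKM + 1) scale. By FPKM alone 11 were lower and 4 higher, with the counting interval wholly below 1 for 4 and wholly above 1 for 2. Their FPKM summed to 9.51 in the Mst1/2 D/D library and 21.0 in the control library, led by Dcn, the decorin gene, at 3.79 in the Mst1/2 D/D library and 11.9 in the control library. Without Dcn the sums were 5.72 in Mst1/2 D/D and 9.09 in control. Tcf21, a transcription factor of lung mesenchyme, had 0.269 in the Mst1/2 D/D library and 0.580 in the control library. Its ratio was 0.464, with an interval of 0.178 to 1.13 that includes 1. The 2 with an interval above 1 were the smooth muscle genes Acta2 and Myh11. Acta2 had 0.604 in the Mst1/2 D/D library and 0.291 in the control library, a ratio of 2.07 (1.05 to 4.30), and Myh11 0.172 in Mst1/2 D/D and 0.0746 in control, a ratio of 2.31 (1.16 to 4.90).

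Of 10 leukocyte markers, 5 were at least 1.5-fold lower and 0 higher, and by FPKM alone 8 were lower and 2 higher. Their sums were 7.01 in the Mst1/2 D/D library and 15.3 in the control library. The counting interval lay wholly below 1 for 6 and wholly above 1 for 2. Among the 6, Fcer1g had 1.36 in the Mst1/2 D/D library and 4.45 in the control library, a ratio of 0.305 (0.185 to 0.505). Ptprc, also among them, had 0.172 in Mst1/2 D/D and 0.519 in control, a ratio of 0.331 (0.208 to 0.550). The 2 with an interval above 1 were Csf1r and Cd79a. Csf1r, a receptor gene of macrophages, had 1.80 in the Mst1/2 D/D library and 0.984 in the control library, a ratio of 1.83 (1.43 to 2.37). Cd79a, a B cell gene, had 1.06 in Mst1/2 D/D and 0.527 in control, a ratio of 2.02 (1.11 to 3.71). Of 10 endothelial markers, 1 was at least 1.5-fold lower and 0 higher, and by FPKM alone 6 were lower and 4 higher. Their sums were 10.6 in the Mst1/2 D/D library and 14.4 in the control library. The direction of these sums rested on Kdr, a receptor for vascular endothelial growth factor. Kdr had 5.11 in the Mst1/2 D/D library and 9.05 in the control library. Without Kdr the sums were 5.51 in Mst1/2 D/D and 5.32 in control. The counting interval lay wholly below 1 for 3 markers, Kdr, Vwf and Pecam1, and wholly above 1 for 1, Esam. Vwf had 0.328 in Mst1/2 D/D and 0.802 in control, a ratio of 0.409 (0.307 to 0.541). Pecam1 had 0.565 in Mst1/2 D/D and 0.878 in control, a ratio of 0.643 (0.431 to 0.930). Esam, an adhesion molecule gene, had 3.45 in the Mst1/2 D/D library and 2.26 in the control library, a ratio of 1.53 (1.20 to 1.97). None of these 35 markers was at 0 in either library. The part of such cells in the Hox values was not tested.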

How the data were processed

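Each library has 1 table of 28107 RefSeq transcript entries. The authors aligned reads to mm9 and estimated transcripts with TopHat and Cufflinks, as listed per the submitters' processing notes, whose versions, with read length and strandedness, are not given in the sources used. The authors deposited FPKM for each entry, per the file headers, and also a coverage signal, the mean read depth over the transcript. FPKM was summed per symbol with Python 3.11.15 and pandas 2.3.3. Starts were raised by 1, since 99.5% of 655 microRNA entries then span their stated length.

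Coverage times length gave bases per gene. The median of values between 25 and 75 bases among genes with 1 entry, 47.1 bases, was taken as 1 read, which is an assumption. Ratios of FPKM have exact Clopper-Pearson 95% intervals from rounded reads, scaled by the depth ratio of 0.895, made with scipy 1.17.1. They cover counting error only, and PCR duplicates are not independent molecules. With 1 library per genotype no p-value is given. The interval and fold scripts were tested on simulated Poisson counts. Recovery of changed genes was scored only at FPKM levels above that of every Hox member, so it does not cover such low values. For a gene at 0 in 1 library no ratio is given. The strand was not available, so overlapping and antisense entries cannot be separated, and reads shared by near-identical paralogues depend on how Cufflinks divided them.

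All 39 members enter the counts and sums. Members with a value above 0 are named with their FPKM, which is more than the naming rule asked for, and the others are named as at 0; a few items, among them 1 member, are not reported here by name. The members, the 9 gene lists and the settings were chosen with earlier results of these data known. Of the other lists, genes at 1.5-fold or with high FPKM were to be named, and further ones were picked for their known role, in part after their values were seen.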

Additional observations from a re-analysis of the deposited data

How the results depend on the processing

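The family's low level was the same with the highest entry per symbol and at a threshold of 0.5, with 0 members passing, whereas after rescaling to TPM 4 members reached 1 in at least 1 library. The count of members at least 1.5-fold higher was 0, and 1 with a pseudocount of 0.1. The count at least 1.5-fold lower was 0, 2 with a pseudocount of 0.1 and 1 after rescaling to TPM. Centring on genes with FPKM of at least 1 in a library moved the median log2 difference of the members to -0.070, by construction. Without Hoxc8 the ratio of the Hoxc sums was 2.43, against 0.781 with it; without Hoxd4 no Hoxd value is left in the Mst1/2 D/D library, so no ratio was formed. The filter at FPKM of 1 leaves no member and gives no value. With a read taken as 100 bases the Hoxa interval of 0.180 to 1.36 included 1. Counts of 0 at a pseudocount of 1 and the median of 0 could not move under the other entry, status and fold settings, so they say nothing about stability. Across summing, TPM, status and leaving out the highest member, the ratio of the FPKM sums ran from 0.779 to 0.881 for the family, from 0.502 to 0.586 for Hoxa and from 1.08 to 1.28 for Hoxb. Chosen after seeing the data, leaving out Kdr gave a ratio of endothelial marker sums of 1.04, against 0.739 with it. No paired analysis was possible because each genotype has 1 library. Depth limits every Hox value: no member exceeded about 27.6 reads.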
